A study of Rattus norvegicus with 6 samples.

Results

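The regions described here are stretches of the rat genome where hotspots of DNase I cutting were listed in both libraries of microglia stimulated with lipopolysaccharide (LPS) and in none of the other 4 libraries of the experiment. A hotspot is an interval that the authors called as cut more often than its surroundings in 1 library. Of 129499 regions counted in all libraries, 7283 (5.62%) overlapped by at least 1 bp a hotspot in both LPS lists and no hotspot of the 2 untreated and 2 glioma-conditioned medium lists. These are called LPS-only regions below, after the lists and not after their counts. They were chosen by the hotspots of all 6 libraries, and so by how often each was cut there, and for that reason their levels in the 3 groups are given as a description and carry no test.

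DNase I cuts DNA where nucleosomes are missing or displaced, and such hypersensitive sites mark promoters, enhancers and other regulatory elements. LPS, a component of the outer membrane of Gram-negative bacteria, is sensed by Toll-like receptor 4 on macrophages and on microglia, the macrophages of the brain tissue. Its signalling activates transcription factors such as NF-kB, AP-1 and interferon regulatory factors, which bind enhancers together with the lineage factor PU.1, and stimulated macrophages are known to open elements that are closed at rest.

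The 6 libraries came from microglia of the cerebral cortex of Wistar rat pups aged 1 day, and every culture pooled 10 to 15 pups. Cells of all groups were grown for 2 weeks with 10% serum, shaken off and rested for 48 h. Untreated cultures then received no stimulus, LPS cultures received 100 ng/mL LPS from Salmonella enteritidis for 6 h, and GCM cultures received, for 6 h, medium that C6 rat glioma cells had conditioned for 24 h. Each group had 2 independent cultures, named replicate 1 and replicate 2. The SE below comes from a fit of all 6 libraries, in which the spread between replicates was estimated over all 3 groups. DNase I acted on the nuclei for 10 min at doses between 0.2 and 3.2 U, of which 3 were carried on to sequencing. The question was where stimulation changes chromatin accessibility. The label microglia was not checked against marker genes, because gene positions in the build of these files (rn5) were not used here.

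Libraries held 60.1 M to 120.5 M reads, of which 7.14 M to 12.4 M were counts in the 129499 regions. Hotspot lists held 107489 to 160868 intervals, and untreated replicate 2, the library with the fewest counts in regions, had the shortest list. Over all regions the untreated libraries differed by no more than counting error (chi-square per degree of freedom 0.975, against 1.24 for LPS and 1.29 for GCM), but their counts summed per chromosome did differ (16.04), and they were kept as 2 samples. Levels are given as CPM, the count of a region per 1 M counts in regions of that library after TMM scaling, which corrects for the composition of a library.

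The typical LPS-only region was short and weakly cut. Their median width was 239 bp, with quartiles of 174 and 296 bp and extremes of 1 and 1238 bp. All counted regions had a median of 370 bp, and the 69548 regions with hotspots in all 6 lists, called constitutive regions below, had 549 bp. The corresponding sets for the other groups were closer in width, at 202 bp for the 2468 regions with hotspots only in GCM lists and 193 bp for the 2886 with hotspots only in untreated lists. At the short end, 50 LPS-only regions were under 10 bp wide and 8 were 1 bp wide, since a counted region was the part shared by hotspots and could be a sliver. The LPS hotspots over them were wider, with medians of 309 bp in the list of replicate 1 and 320 bp in that of replicate 2.

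Median levels over all 7283 regions were 1.79 CPM in untreated replicate 1 and 1.68 CPM in untreated replicate 2. They were 2.94 CPM in LPS replicate 1 and 2.85 CPM in LPS replicate 2. With GCM they were 1.60 CPM in replicate 1 and 1.88 CPM in replicate 2. Both LPS medians thus lay above the other 4, and the GCM medians lay on either side of the untreated ones. In counts, these medians corresponded to 20 and 12 reads in untreated, 29 and 35 in LPS and 13 and 23 in GCM libraries, in replicate order, so a single region rested on few reads.

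Per length of sequence, LPS-only regions were cut in untreated and GCM cultures as well, though less than constitutive regions. Summed over the set, cutting was 7.67 and 7.68 CPM per kb in the untreated libraries, 12.9 and 12.8 CPM per kb with LPS, and 7.08 and 8.07 CPM per kb with GCM. Constitutive regions had 17.7 and 17.9 CPM per kb in untreated, 17.4 and 17.8 in LPS and 18.3 and 17.4 in GCM libraries. Even with LPS the set therefore stayed below the density of constitutive regions. A region without a listed hotspot was usually not one without cuts: only 93 and 115 of the 7283 had a count of 0 in the untreated libraries, and 120 and 83 in the GCM libraries, against 52 and 41 in the LPS libraries. The set took 2.24% and 2.20% of all counts in regions with LPS, 1.33% in both untreated libraries, and 1.21% and 1.42% with GCM.

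**Figure D1:**
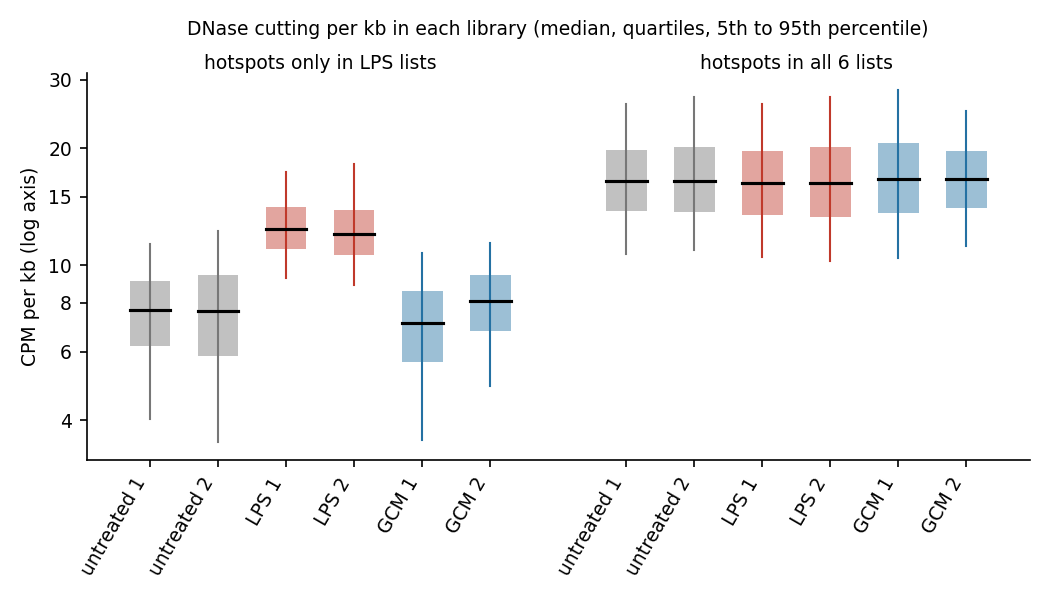
Cutting per kb of sequence (CPM per kb, log axis) in each of the 6 libraries for LPS-only regions (left) and constitutive regions (right) of at least 100 bp; boxes span the quartiles, black lines are medians and thin lines run from the 5th to the 95th percentile. The LPS medians of 12.4 and 12.04 CPM per kb lie above those of the other 4 libraries on the left (7.10 to 8.11), while the 6 medians on the right lie between 16.3 and 16.6.

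In 5446 of the 7283 regions (74.8%) both LPS libraries lay above all of the other 4, against 15.7% of all counted regions. Among those with enough counts for the fit below it was 5291, or 79.0%, against 15.9%. The remaining 1837 regions had at least 1 untreated or GCM library at or above an LPS library, although none of those 4 lists held a hotspot there. Compared library by library, LPS replicate 1 was above untreated replicate 1 in 94.7% of LPS-only regions and above untreated replicate 2 in 91.2%. LPS replicate 2 was above them in 93.6% and 89.9%. Over all counted regions these shares lay between 49.8% and 51.0%. The 2 GCM libraries stood further apart, and GCM replicate 2, the deeper one, exceeded GCM replicate 1 in 68.0% of LPS-only regions, with a median log2 ratio of 0.15. Over all counted regions it did so in 53.2%, with a median log2 ratio of 0.016. Untreated replicate 2 exceeded untreated replicate 1 in 49.3% of LPS-only regions, beside 51.0% of all counted regions.

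Changes were estimated with edgeR's quasi-likelihood fit of all 6 libraries, as log2 fold changes between group means. Enough counts for the fit (a minimum count of 10) were present in 6694 LPS-only regions, and 589 were not fitted. Those 589 were slivers, with a median width of 49 bp, 540 of them under 100 bp, and 457 had a higher mean CPM with LPS than untreated. The median log2 fold change of the 6694 with LPS against untreated was 0.67, with quartiles of 0.41 and 1.02 and a range from -1.05 to 3.30, beside a median of -0.00069 over all 126284 fitted regions. Of the 6694, 6542 had a value above 0 and 152 below, and 1740 exceeded a 2-fold difference. Because regions passed the filter through the LPS libraries, where they are high, these counts describe the choice and support nothing.

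At an adjusted p under 0.05, called below, edgeR called 2349 LPS-only regions (35.1% of those fitted) higher with LPS than untreated, where 6.71% of all fitted regions were called. None was called lower with edgeR, beside 3.14% of all fitted regions. DESeq2 called 0 lower as well, beside 67 of all 116835 regions with an adjusted p. In that direction 1 LPS-only region had an unadjusted p under 0.05 with edgeR and 0 with DESeq2. For GCM against LPS, edgeR called 2161 lower (32.3%, beside 4.84% of all fitted regions) and 0 higher, beside 3.75%. None was higher at an unadjusted p under 0.05. DESeq2 called 0 higher there, beside 110 of all 111818 regions with an adjusted p. In both comparisons edgeR called 1597 LPS-only regions, beside 4012 of all 126284 fitted regions. With DESeq2 the counts were 231 of 4483 members with an adjusted p higher with LPS than untreated, beside 722 of all 116835 such regions, and 229 of 3475 lower with GCM than LPS, beside 602 of 111818. The rule used these contrasts, which also share the LPS libraries, so nothing is read from the counts. The number called higher with LPS depended on which cultures were present: it dropped to 989 when untreated replicate 1 was left out and to 1330 when untreated replicate 2 was, and leaving out LPS replicate 1 or LPS replicate 2 gave 1556 and 1381. The share of all fitted regions called higher dropped as well, to 2.64%, 2.94%, 4.52% and 4.25% in the same order. The number lower with GCM than LPS also dropped whenever a GCM or LPS library was left out, and so did the number over all fitted regions. The median log2 fold change of LPS-only regions for GCM against LPS was -0.60 without GCM replicate 1 and -0.77 without GCM replicate 2. It was -0.63 without LPS replicate 1 and -0.68 without LPS replicate 2, where all libraries gave -0.66. In the authors' deposited table for LPS, 6776 LPS-only regions were listed and 2244 of them (33.1%) had an adjusted p under 0.05 with higher LPS, beside 6.43% of all regions in that table.

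The 10 LPS-only regions with the smallest p for LPS against untreated, among those with both LPS libraries above the other 4, lay on chromosomes 2, 4, 5, 8, 10 and 14. Their positions are given in rn5, counted from 1, and nothing is said of the genes around them, because no annotation of that build was used. On chromosome 10, chr10:39327709-39328154 (446 bp) had 2.68 and 1.96 CPM in the untreated, 10.5 and 11.4 CPM in the LPS and 2.82 and 3.36 CPM in the GCM libraries. The LPS values stood apart from the other 4, both GCM values were slightly above both untreated ones, and the log2 fold change with LPS was 2.19 ± 0.20 (SE, n = 2 per group). The region chr5:119528416-119528768 (353 bp) had the largest change of the 10. It had 0.805 and 0.840 CPM untreated, 6.09 and 5.38 CPM with LPS, and 1.23 and 1.15 CPM with GCM, a log2 fold change of 2.78 ± 0.29 (SE) with LPS and 0.52 ± 0.43 (SE) with GCM. Its nearest constitutive region was 13743 bp away.

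A further region on chromosome 5, chr5:83872916-83873318 (403 bp), followed the same order. It had 1.16 and 0.840 CPM untreated, 6.39 and 6.76 CPM with LPS and 1.35 and 1.64 CPM with GCM, so that both GCM values were slightly above both untreated ones and far below LPS. The region chr4:64184848-64185331 (484 bp) was the most isolated of the 10, at 65638 bp from the nearest constitutive region and 14658 bp from the nearest hotspot of another group. Its levels were 2.06 and 1.54 CPM untreated, 8.72 and 8.64 CPM with LPS, and 2.09 and 3.60 CPM with GCM. There the LPS cultures were nearly equal, while the GCM cultures differed, and GCM replicate 1 lay close to untreated replicate 1.

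**Figure D2:**
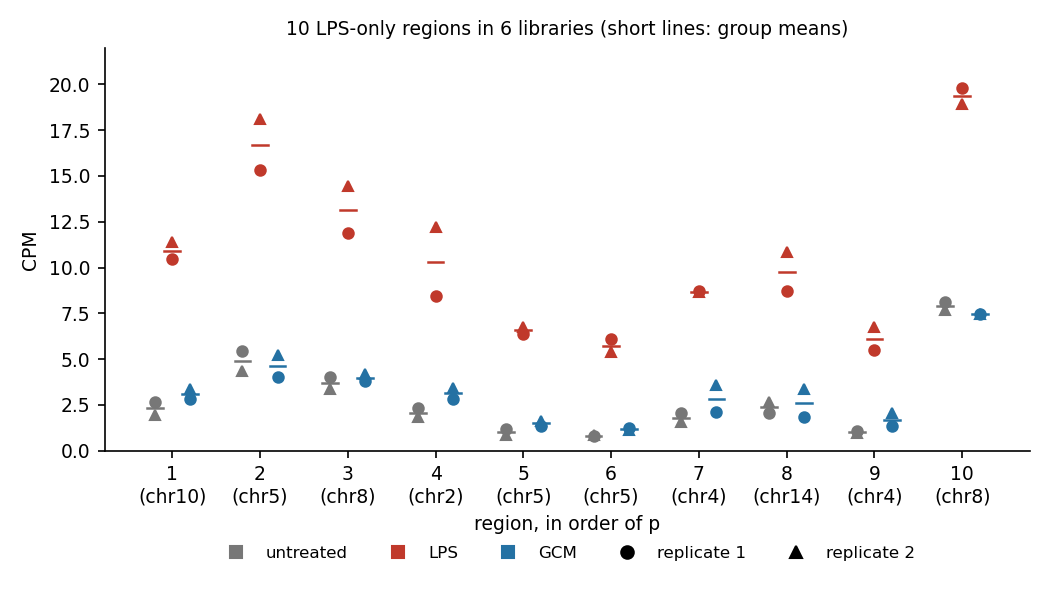
CPM in each library (circles replicate 1, triangles replicate 2, short lines group means) for the 10 LPS-only regions with the smallest p for LPS against untreated, labelled by rank and chromosome. All LPS points lie above all grey and blue points of the same region, from 5.38 to 19.8 CPM, and the blue GCM points lie near the grey untreated ones.

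The regions with the highest LPS levels were the wide ones, and they were already clearly cut without LPS. The region chr10:54602143-54603378 (1236 bp) had the highest mean level of all LPS-only regions, with 10.0 and 10.2 CPM untreated, 21.9 and 21.3 CPM with LPS and 9.33 and 8.35 CPM with GCM. Its mean over the untreated and GCM libraries was also the highest in the set, and its untreated values were above those of the median constitutive region (9.03 and 9.10 CPM), though spread over a greater width. The widest LPS-only region, chr8:89884967-89886204 (1238 bp), had 8.14 and 7.70 CPM untreated, 19.8 and 18.9 CPM with LPS and 7.49 and 7.45 CPM with GCM. In both regions the LPS values lay above the other 4, which were close together, with log2 fold changes of 1.09 ± 0.13 and 1.28 ± 0.14 (SE). A shorter region, chr5:168455911-168456501 (591 bp), came next in level and first in the authors' hotspot score, above 93.6% of the list in LPS replicate 1 and 96.0% in LPS replicate 2. It had 5.46 and 4.34 CPM untreated, 15.3 and 18.1 CPM with LPS and 4.05 and 5.24 CPM with GCM, with a log2 fold change of 1.74 ± 0.16 (SE).

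Such strong hotspots were the exception. The median LPS-only region lay above 29.5% of the hotspots in the list of LPS replicate 1 and above 35.0% of those in the list of LPS replicate 2. In the list of replicate 1, 82.8% of LPS-only regions were in the lower part of the list, below its median score, and in that of replicate 2, 73.9%. Only 49 and 83 regions reached the top 10%. When the rule asked for a score in the upper part of both LPS lists, 741 of the 7283 regions met it, with a median width of 341 bp and a median log2 fold change with LPS of 1.22.

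Width went along with the estimated change and with the number of calls, and wider regions also hold more counts. Among 674 regions under 100 bp, the median log2 fold change of those fitted was 0.45 and 2.99% were called higher with LPS. Among 3107 regions in the middle of 5 width classes (median 251 bp) it was 0.65 with 33.1% called. Among 161 regions of 500 bp or more it was 1.02 with 90.7% called. Over all fitted regions of any width 6.71% were called, and no share by width was taken there. Hotspots of both LPS lists wholly covered all 7283 regions, so width is not independent of the libraries that the rule used. Cutting per kb with LPS increased from 11.1 CPM per kb in the narrowest class to 14.7 in the widest, while the untreated density stayed between 7.19 and 7.75 CPM per kb. The density with GCM was 7.48 CPM per kb in the narrowest class and 6.95 in the widest, near the untreated values.

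Closeness to a hotspot of another group went the opposite way. The nearest hotspot of the other 4 lists was at a median of 1105 bp, 2274 regions (31.2%) had one within 500 bp, 72 within 10 bp, and 7 touched one. In the 604 regions with such a hotspot under 100 bp away, the median log2 fold change with LPS was 0.48, against 0.89 in the 437 regions where it was at least 10000 bp away. The untreated density was 8.34 CPM per kb in the first class and 6.68 in the second, and the LPS density 11.95 and 12.9. The larger fold changes of isolated regions went with lower cutting without LPS as well as slightly higher cutting with it. The classes were made from the hotspots of the untreated and GCM libraries, so the levels in those libraries are not independent of the classes. Of the LPS hotspots over these regions, 6.67% in replicate 1 and 8.71% in replicate 2 also reached a hotspot of another group outside the counted region.

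**Figure D3:**
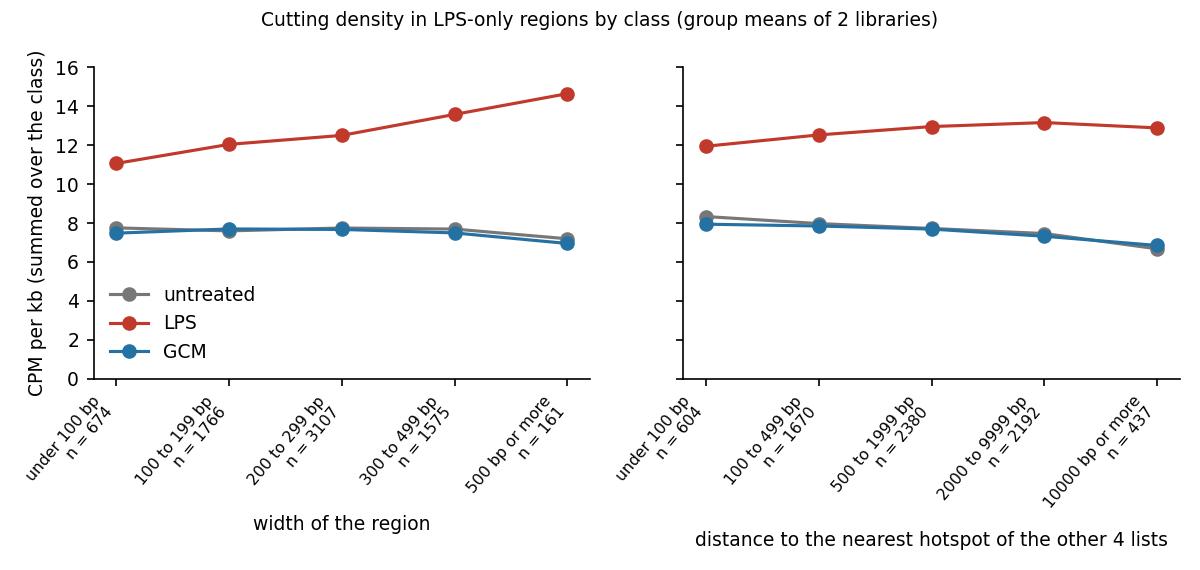
Cutting density (CPM per kb summed over the class, mean of the 2 libraries of a group) of LPS-only regions by width (left) and by distance to the nearest hotspot of the 4 untreated and GCM lists (right). LPS values range from 11.1 to 14.7 by width, while the untreated and GCM lines run together and fall to 6.68 and 6.85 in the most distant class.

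The border of the set was narrow. Among regions with hotspots in both LPS lists and in at least 1 other list, 146 missed the rule by an overlap of 10 bp or less and 26 by 1 bp. Just inside it, chr1:177202473-177202639 touched a hotspot of untreated replicate 1 and had 1.16 and 0.840 CPM untreated, 3.04 and 2.12 CPM with LPS and 0.491 CPM in both GCM libraries. Also just inside, chr10:103928193-103928504 had 3.31 and 4.48 CPM untreated, 4.87 and 4.08 CPM with LPS and 3.31 and 3.36 CPM with GCM. Here untreated replicate 2 exceeded LPS replicate 2, so the first of this pair was separate and the second was not. Just outside, chr1:223617950-223618267 overlapped a hotspot of untreated replicate 1 by 1 bp and had 1.61 and 3.36 CPM untreated, 5.27 and 3.91 CPM with LPS and 2.33 and 1.88 CPM with GCM. Its LPS values lay above the other 4, so a region just outside could be as separate as one inside.

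How many regions the rule left depended on the list of each unstimulated or GCM library. Beyond the set, 3360 regions had hotspots in both LPS lists and in untreated replicate 1 alone, 572 in untreated replicate 2 alone, 1869 in GCM replicate 1 alone and 2019 in GCM replicate 2 alone. Dropping the list of untreated replicate 1, the longest list of the 6, would have given 10643 regions, and dropping that of untreated replicate 2, the shortest, 7855. In the library whose list held the hotspot, these near misses had median levels of 2.68, 2.94, 2.70 and 2.95 CPM in that order, against 1.79, 1.68, 1.60 and 1.88 CPM for LPS-only regions in the same libraries. Their LPS medians, 2.86 to 3.08 CPM, were close to those of the set.

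GCM, the tumour-derived stimulus, left the set near the untreated level on average. The median log2 fold change of GCM against untreated was -0.0080 over the 6694 fitted regions, with 3282 above 0 and 3412 below. edgeR called 9 regions higher, beside 1.34% of all fitted regions, and 0 lower, beside 0.231%, while 251 and 136 had an unadjusted p under 0.05 in these directions. DESeq2 called 0 in either direction, beside 3 higher and 0 lower of all 129376 regions with an adjusted p. With DESeq2, 43 and 11 LPS-only regions had an unadjusted p under 0.05. The rule asked for no hotspot in these 4 libraries, so small differences are what it selects. The 9 calls depended on which libraries were present, and so did calls over all fitted regions. The median log2 fold change was 0.011 without untreated replicate 1 and -0.00056 without untreated replicate 2. It was 0.068 without GCM replicate 1 and -0.11 without GCM replicate 2. With whole-library totals 2 LPS-only regions were called higher, beside 0.289% of all fitted regions. With the replicate number as a block, 13 were called higher and 3 lower, beside 2570 and 763 of all 126284 fitted regions. The authors' deposited table for GCM gave 9 LPS-only regions (0.133%) higher and 1 lower at an adjusted p under 0.05, beside 1.49% of all its regions higher.

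In all 9 regions that edgeR called higher with GCM, both GCM libraries were above both untreated ones. The region chrX:45425722-45425891 (170 bp) had 0.447 and 0.840 CPM untreated, 2.23 and 1.79 CPM with LPS and 1.60 and 2.45 CPM with GCM. There the GCM and LPS values overlapped, on counts of 5 and 6 reads untreated, 22 in each LPS library and 13 and 30 with GCM. In the other 8 both LPS libraries were above the GCM ones. An example is chr4:26139736-26139992 (257 bp), with 0.984 and 0.700 CPM untreated, 4.77 and 3.42 CPM with LPS and 1.96 and 2.78 CPM with GCM.

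Among the regions with the smallest p for a lower level with GCM, which were not called, 4 of 5 had both LPS values above and both GCM values below the untreated ones. The largest differences between LPS and GCM among them were in the following pair. In chr4:57223933-57224290 (358 bp), levels were 3.67 and 4.48 CPM untreated, 7.41 and 8.15 CPM with LPS and 1.72 and 2.37 CPM with GCM. The 3 groups did not overlap, with log2 fold changes of 0.97 ± 0.20 (SE) for LPS and -0.92 ± 0.27 (SE) for GCM against untreated. In chr8:90087803-90088066 (264 bp), levels were 1.34 and 2.52 CPM untreated, 2.84 and 3.75 CPM with LPS and 0.368 and 0.736 CPM with GCM. The groups did not overlap there either, but the untreated cultures differed from each other nearly as much as from LPS.

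At the other end, the lowest change with LPS was that of chr4:180342886-180343009 (124 bp), at -1.05 ± 0.36 (SE) on the log2 scale. It had 1.43 and 2.10 CPM untreated, 0.811 and 0.815 CPM with LPS and 0.736 and 0.818 CPM with GCM, and was 28 bp from a hotspot of GCM replicate 1. Both LPS lists held a hotspot there, yet both LPS counts were below both untreated ones. All 5 regions with the lowest log2 change were narrow, from 75 to 124 bp, and none was called.

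Along the genome LPS-only regions were spread over all 21 chromosomes. Their share of the counted regions ran from 4.47% on chromosome 12 to 6.32% on chromosome 15. The nearest other LPS-only region was at a median of 56886 bp, and 1851 regions (25.4%) had one within 20 kb. The corresponding share of constitutive regions with an LPS-only region within 20 kb was 23.1%, and it was 18.4% for GCM-only and 16.1% for untreated-only regions. The region next to an LPS-only region was itself LPS-only in 8.16% of cases, against 5.33% for constitutive regions.

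Chaining regions less than 20 kb apart gave 5432 single regions, 734 pairs, 97 triples, 18 runs of 4 and 4 runs of 5. One run of 5 lay on chr17:50264989-50308592, and its 5 members added up to 3.85 and 4.90 CPM untreated, 13.9 and 12.6 CPM with LPS and 4.91 and 6.96 CPM with GCM. All 5 had both LPS libraries above the other 4, with log2 fold changes from 1.34 to 2.15, 4 of the 5 were called higher with LPS, and so was the only constitutive region inside the run. The run on chr16:71866184-71895928 held 5 members and no other region, with sums of 9.03 and 8.12 CPM untreated, 18.1 and 19.1 CPM with LPS and 7.24 and 10.1 CPM with GCM. Its strongest member, chr16:71879516-71879808, had a log2 fold change of 2.44 ± 0.33 (SE), and the other 4 lay between 0.70 and 1.18. The tightest of the runs of 5, chr19:25762006-25774401, included slivers of 30 bp and 6 bp, 1 of its 3 fitted members was called, and it had sums of 7.42 and 8.26 CPM untreated, 10.96 and 9.70 CPM with LPS and 4.54 and 6.14 CPM with GCM. The remaining run of 5, chr6:20981922-21026912, had the longest span of the 4. All 5 of its members were fitted and 0 were called, with a median log2 fold change of 0.46 and sums of 14.7 and 13.4 CPM untreated, 21.2 and 18.2 CPM with LPS and 13.01 and 13.3 CPM with GCM. Of the 4 runs, those on chromosomes 16 and 17 had most of their members called, and those on chromosomes 6 and 19 did not.

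Densest by count were 1-Mb windows that were picked after their values were seen. The windows starting at chr17:24000001, chr10:17000001 and chr9:92000001 held 15 LPS-only regions each, of 121, 131 and 150 counted regions. The window starting at chr4:242000001 held 14 of 63 (22.2%), the largest share of the 5 densest windows.

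Distance to constitutively open chromatin was much like that between constitutive regions themselves. From edge to edge, LPS-only regions had their nearest constitutive region at a median of 4237 bp, with quartiles of 1284 and 12379 bp. The nearest other constitutive region of a constitutive region was at 4057.5 bp. GCM-only regions were nearer by their median, 3348.5 bp, but not by their upper quartile, 13245 bp. Untreated-only regions were farther, at 9259.5 bp, and the median over all counted regions was 3942 bp. Under 1 kb from a constitutive region lay 1510 LPS-only regions (20.7%, beside 22.6% of all counted regions). More than 50 kb away lay 366 (5.03%, beside 5.33%).

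**Figure D4:**
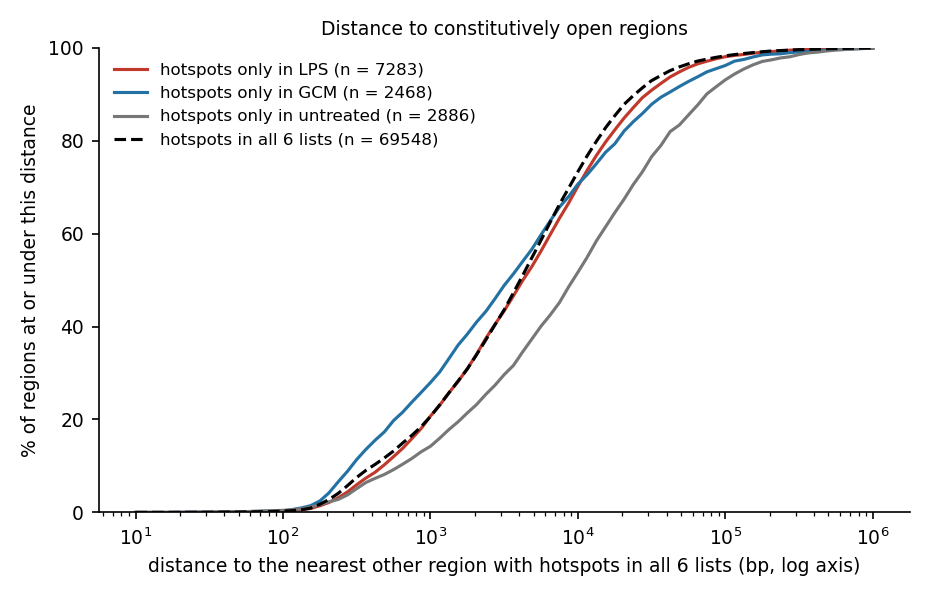
Share of regions (%) whose nearest other constitutive region lies at or under a given distance (bp, log axis), for LPS-only, GCM-only, untreated-only and constitutive regions. The LPS-only curve runs close to the dashed constitutive curve, with medians of 4237 and 4057.5 bp, and the untreated-only curve lies to the right with a median of 9259.5 bp.

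The estimated change varied little with this distance except close by. The median log2 fold change with LPS was 0.56 in regions under 1 kb from a constitutive region, 0.69 at 1 to 5 kb and 0.72 in each of the 3 classes beyond. The farthest region, chr15:82384940-82385002, lay 1752954 bp from any constitutive region but 48 bp from a hotspot of GCM replicate 1. With 1.07 and 0.560 CPM untreated, 1.12 and 0.733 CPM with LPS and 0.736 and 1.06 CPM with GCM, its groups overlapped. The region chr1:278148230-278148417, 1109476 bp away, had 1.07 and 0.280 CPM untreated, 1.83 and 2.04 CPM with LPS and 1.60 and 1.56 CPM with GCM. There the GCM values were nearer to LPS than to untreated.

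The rule did not use the levels of constitutive regions around the set directly. They are not independent of it, because a hotspot is called against its surroundings. Constitutive regions were also chosen by the hotspot lists of the same 6 libraries. Of 9502 constitutive regions within 10 kb of an LPS-only region, edgeR called 480 (5.05%) higher and 186 (1.96%) lower with LPS than untreated at an adjusted p under 0.05. Of the 60044 beyond 10 kb, 2076 (3.46%) were called higher and 1698 (2.83%) lower, and over all constitutive regions the shares were 3.68% and 2.71%. Both counts within 10 kb depended on the fit: DESeq2 called 27 higher and 2 lower (ratio of the higher share within to beyond 1.19), and scaling to whole-library totals gave 170 higher and 5 lower. The share called higher was 5.70% under 1 kb, 4.37% at 10 to 25 kb and 2.77% beyond 100 kb, and the share called lower was 1.88%, 2.46% and 3.01% in the same classes. Higher calls had a larger share within 10 kb than beyond on 20 of 21 chromosomes, and lower calls a smaller one on 19 of 21. Neighbouring regions are not replicates, so no p is given for these shares. Calls for GCM against untreated were at like shares, with 0.979% higher within 10 kb and 1.04% beyond (1.03% over all constitutive regions), and 0.0316% and 0.0683% lower (0.0633% over all). For GCM against LPS, which shares the LPS libraries, 3.30% were called lower within 10 kb and 2.08% beyond (2.25% over all), and 2.89% and 3.59% higher (3.49% over all).

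The LPS cultures contributed unequally to this pattern. From beyond 100 kb to within 10 kb of an LPS-only region, the median log2 ratio of constitutive regions differed by 0.070 and 0.081 for LPS replicate 2 against the untreated libraries, but by 0.016 and 0.021 for LPS replicate 1. Against GCM replicate 1 and GCM replicate 2 the same ratio differed by 0.034 and 0.052 for LPS replicate 2. For LPS replicate 1 these differences were -0.017 and -0.0087, in the opposite direction. The difference between the LPS cultures themselves was 0.062, which is larger than any of the differences for LPS replicate 1. Without LPS replicate 2, 278 constitutive regions (2.93%) were called higher within 10 kb and 2.30% beyond, a ratio of 1.27 where all libraries gave 1.46. The count within 10 kb was 139 without untreated replicate 1 (ratio 1.52) and 167 without untreated replicate 2 (ratio 1.47). The 186 lower calls numbered 38 and 34 without these untreated libraries, 99 without LPS replicate 2, and 98 with the untreated libraries counted as 1 sample. What part the difference between the LPS cultures has in the pattern was not tested.

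Nor was the pattern for higher calls particular to LPS-only regions. Near the regions listed only with GCM, 5.23% of constitutive regions within 10 kb were called higher with LPS and 3.59% beyond, and 86 of 3441 (within 10 kb) and 2.72% (beyond) were called lower. Near the regions listed only in untreated cultures, 2.96% and 3.70% were called higher and 4.11% and 2.66% lower. Within the set, the nearest constitutive region was called higher with LPS for 8.09% of the 2349 called LPS-only regions. For the 4345 fitted and not called it was 4.23%, and over all 7283 it was 5.49%. The split used the same contrast and libraries as the calls of the neighbours, so these shares are not independent of it and nothing is read from them.

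**Figure D5:**
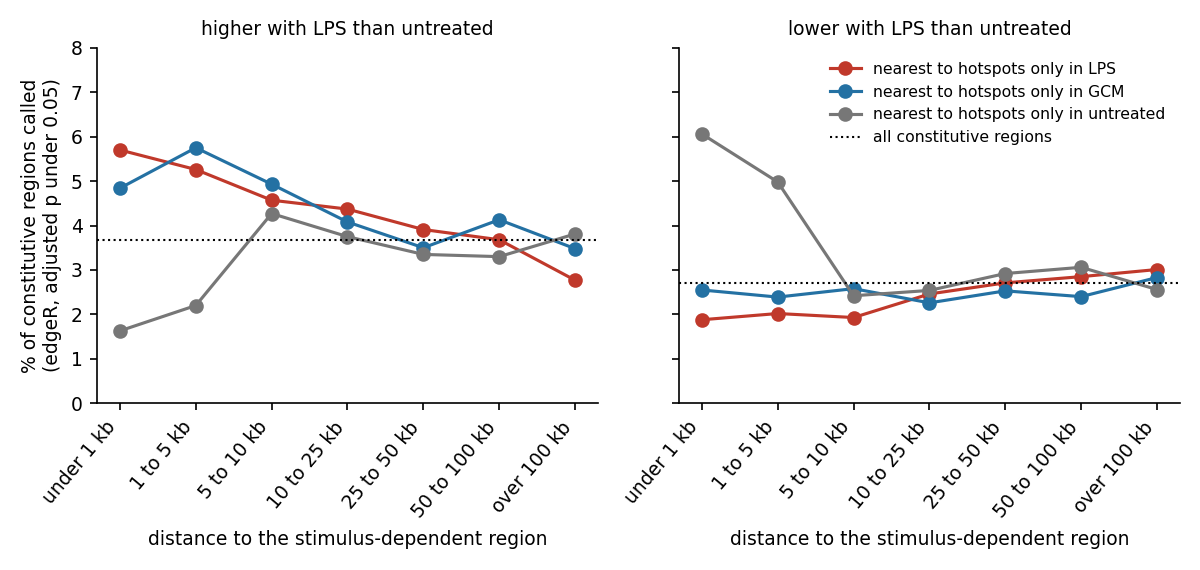
Share of constitutive regions (%) that edgeR called higher (left) or lower (right) with LPS than untreated, by distance to the nearest LPS-only, GCM-only or untreated-only region; the dotted line is the share over all constitutive regions (3.68% and 2.71%). For LPS-only regions the left curve falls from 5.70% under 1 kb to 2.77% beyond 100 kb, and the untreated-only curve on the right starts at 6.06%.

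Single constitutive neighbours of the set, chosen after their values were seen as those with the smallest p within 10 kb, show what such a call looks like. The region chr10:49618123-49618738 (616 bp) had 5.54 and 5.04 CPM untreated, 13.5 and 13.4 CPM with LPS and 7.61 and 7.45 CPM with GCM. Its 3 groups did not overlap, and the log2 fold change with LPS was 1.33 ± 0.16 (SE, edgeR adjusted p = 4.26e-07). The LPS-only region 9568 bp from it, chr10:49608207-49608554, had 1.97 and 2.52 CPM untreated, 4.97 and 6.44 CPM with LPS and 1.96 and 1.47 CPM with GCM. A neighbour in the opposite direction was chr17:15138571-15139045 (475 bp), with 12.1 and 12.6 CPM untreated, 4.26 and 5.62 CPM with LPS and 11.4 and 11.05 CPM with GCM. It fell by 1.29 on the log2 scale with LPS (SE 0.17, edgeR adjusted p = 1.38e-06). The LPS-only region 1958 bp away, chr17:15136317-15136612, had 2.68 and 2.52 CPM untreated, 2.94 and 3.02 CPM with LPS and 2.82 and 2.21 CPM with GCM, so the constitutive region fell where its LPS-only neighbour differed little between groups.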

How the data were processed

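The 6 libraries were made by ligating linkers to DNase I cut ends and sequencing short tags. Per the submitters' processing notes, the authors' tools were DiffBind, edgeR, SAMtools, Picard 1.95, Bowtie 1.1.2 and cutadapt 1.8.3, with build rn5; order and settings are not given in the sources used here. The authors deposited raw counts per region and, per the file headers of their comparison tables, a log2 fold change, a likelihood ratio score, a p-value with its adjusted p-value, and CPM. The authors' CPM are scaled to whole-library totals: dividing by 1 total per library gave whole counts for 100% of values within 0.001. The authors deposited hotspot lists with a score of undefined meaning, used only for ranks within a list, and a stated false discovery rate of 0.01.

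Hotspots and regions were intersected in Python 3.11.15, and counts fitted over all regions in edgeR 4.0.16 (R 4.3.3; TMM, minimum count 10, two-sided quasi-likelihood test, Benjamini-Hochberg adjustment, threshold 0.05), after the fit had been tested on simulated data. An SE is the size of a log2 fold change divided by the root of its F statistic. Pairwise library ratios used CPM plus 0.5. Distances run from edge to edge on a chromosome. Counting intervals were not used, as the error was estimated from the spread between replicate cultures over all 3 groups.

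Named regions were the 10 with the highest LPS CPM, the 10 with the smallest p and both LPS libraries highest, 3 of the 4 runs with most members (under 20 kb apart; the remaining run of the same size is also given), and 5 each by width, by distance from constitutive regions, by CPM without LPS, by lowest log2 change, by smallest p for GCM in each direction, by hotspot score and by closeness to the border on each side; the text gives the few that matter. The members and these lists were chosen with earlier results of these data known. Alternatives were other scalings, filters, DESeq2 1.42.0, the 4 libraries compared, a replicate block, each library left out and stricter rules. Gene positions, motifs and sequences need a genome of build rn5 and were not analysed here.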

Additional observations from a re-analysis of the deposited data

How the results depend on the processing

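No result with a threshold reversed. With DESeq2, 231 of the 4483 LPS-only regions with an adjusted p were called higher with LPS than untreated (722 of 116835 in all). It called 229 lower with GCM than LPS (602 of 111818 in all) and 0 higher with GCM than untreated (3 of 129376 in all). It also called 27 constitutive regions within 10 kb higher with LPS (ratio to the share beyond 1.19). Leaving out 1 library at a time gave 989 to 2388, 1116 to 2136, 0 to 10 and 139 to 497 for the same counts. The matching counts over all fitted regions, and over constitutive regions beyond 10 kb, also varied with the library left out. These ranges are therefore not particular to LPS-only regions or to their neighbours. Scaling to whole-library totals gave a median log2 fold change of 0.76 for LPS, where the median of all regions was 0.09, and 2 GCM and 170 neighbour calls. Counting the untreated libraries as 1 sample, chosen after seeing the data, gave a median log2 fold change of -0.0062 for GCM against untreated. Asking for the upper part of both LPS lists by score left 741 regions. The 4 counts named above stayed within 1.5 times under DESeq2 size factors, region totals, both filters and the 4 libraries compared. Replicate deviations correlated over regions at 0.044 between untreated and LPS, 0.10 between untreated and GCM and -0.0015 between LPS and GCM. These values cannot decide whether replicate numbers mark shared cultures, because replicate differences per region were close to counting error. A replicate block gave 2419 members higher with LPS (9398 of 126284 in all) and 2301 lower with GCM than LPS (6974 in all). It gave 13 members higher and 3 lower with GCM than untreated (2570 and 763 in all), and 547 neighbours higher with LPS. Among named regions, LPS calls were lost 31 times in 15 regions and gained 7 times in 3, GCM calls against untreated lost 26 times in 5 and gained 8 times in 3, and a neighbour's call was lost in 1 fit. Estimates of 4 regions that were not called changed sign in 6 fits. The settings for sequence windows were not run. At a median of 12 to 35 reads per region, small differences in single regions were not detectable.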
